A study of Mus musculus with 27 samples.

Results

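The 10 core cardiac transcription factor genes *Nkx2-5*, *Gata4*, *Gata5*, *Gata6*, *Tbx5*, *Tbx20*, *Hand1*, *Hand2*, *Mef2c* and *Isl1* were examined for regions carrying methylation of histone H3 lysine 4 (H3K4) in the embryonic heart. They are among 22367 protein-coding genes annotated in GENCODE vM1 on mouse assembly NCBIM37 (mm9). A region was assigned to a gene when at least 1 bp of it lay in the gene body or within 50 kb of the annotated 5′ end, taken as the transcription start site (TSS). By this rule the 10 genes held 246 of the 358833 regions of the series.

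The study asked where H3K4 methylation is lost when the methyltransferase KMT2D is removed from heart muscle. Hearts were taken at embryonic day E11.5 from C57BL/6 mice, and 24 of the 27 libraries came from them: input, H3K4me1, H3K4me2 and H3K4me3, with 3 pools of 30 hearts per genotype. Mutant hearts were *Tnnt2::Cre;Kmt2d fl/fl;mTmG/+* and control hearts were *Tnnt2::Cre;Kmt2d fl/+;mTmG/+*. Both genotypes therefore carried the Cre driver, at least 1 floxed copy of *Kmt2d* and the mTmG reporter, and the libraries titled WT were heterozygous for the floxed allele. Cre was made from the *Tnnt2* promoter, which is active in cardiomyocytes, and whole hearts also hold endocardial, epicardial and blood cells that do not use it. In such mixed tissue, fewer cells of a type and less methylation per cell cannot be told apart. The other 3 libraries, KMT2D ChIP-Exo from cardiomyocytes derived from *Nkx2-5-EmGFP* embryonic stem cells, were not analysed here. The deposited lists give positions only. The merged list holds every region called for any of the 3 marks, and each decreased list holds the regions that the authors called lower in mutant than in control hearts, for H3K4me1 or H3K4me2. They carry no value per library, so depth is unknown, no spread between pools could be formed and no difference below was tested. No list for H3K4me3 was used here.

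These 10 factors work as a network. They bind enhancers and promoters of contractile, conduction and signalling genes, often side by side. They also bind near one another's genes, and several help to maintain the expression of others in the network. GATA factors are zinc finger proteins, TBX5 and TBX20 share the T-box domain, HAND1 and HAND2 are basic helix-loop-helix proteins, MEF2C is a MADS-box protein, and NKX2-5 and ISL1 are homeodomain proteins. H3K4me1 is found mainly at enhancers, H3K4me2 at enhancers and promoters and H3K4me3 at promoters. Genes that define a cell type often carry H3K4 methylation over an unusually long stretch around the TSS.

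Sequences from both kinds of decreased region are shown first because the results turn on them. The promoters of *Nkx2-5*, *Hand2* and *Isl1* lay inside regions of the decreased H3K4me2 list. Each is given as the 250 bases before the start site in the RefSeq table for GRCm38.p6, and each had exactly 1 match in NCBIM37, which gives the coordinates. Capitals mark AGATAA (the core letters bound by GATA factors), AGGTGT (T-box factors), TNAAGTG (NKX2-5) or CATCTG (HAND factors), read on either strand. No marked motif overlaps another.
*Nkx2-5* promoter, chr17:26978511-26978760, minus strand: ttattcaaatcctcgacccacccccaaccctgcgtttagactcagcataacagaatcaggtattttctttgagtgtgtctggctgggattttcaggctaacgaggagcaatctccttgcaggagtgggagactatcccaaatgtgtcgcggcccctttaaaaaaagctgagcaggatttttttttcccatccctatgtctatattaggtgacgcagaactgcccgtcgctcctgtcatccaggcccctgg
*Hand2* promoter, chr8:59799530-59799779, plus strand: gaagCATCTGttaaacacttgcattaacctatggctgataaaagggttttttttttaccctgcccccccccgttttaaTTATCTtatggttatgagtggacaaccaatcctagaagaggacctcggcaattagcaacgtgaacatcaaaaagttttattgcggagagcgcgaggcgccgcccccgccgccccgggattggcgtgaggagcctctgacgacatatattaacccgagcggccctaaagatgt
*Isl1* promoter, chr13:117099897-117100146, minus strand: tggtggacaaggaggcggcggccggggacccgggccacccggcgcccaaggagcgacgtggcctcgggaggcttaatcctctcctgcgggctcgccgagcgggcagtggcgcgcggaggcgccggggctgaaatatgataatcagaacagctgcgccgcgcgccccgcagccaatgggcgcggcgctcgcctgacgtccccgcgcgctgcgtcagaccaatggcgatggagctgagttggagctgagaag

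For the decreased H3K4me1 list, the central 300 bases of 1 region downstream of *Nkx2-5* and of 1 region downstream of *Gata5* are shown, since these windows held the most motif matches among the H3K4me1 regions. The central 300 bases of the narrow *Mef2c* region in the decreased H3K4me2 list are shown because *Mef2c* was the only one of the 10 genes whose decreased H3K4me2 lay away from the 5′ end alone. All are from the plus strand of NCBIM37.
*Nkx2-5* downstream region, chr17:26950416-26950715: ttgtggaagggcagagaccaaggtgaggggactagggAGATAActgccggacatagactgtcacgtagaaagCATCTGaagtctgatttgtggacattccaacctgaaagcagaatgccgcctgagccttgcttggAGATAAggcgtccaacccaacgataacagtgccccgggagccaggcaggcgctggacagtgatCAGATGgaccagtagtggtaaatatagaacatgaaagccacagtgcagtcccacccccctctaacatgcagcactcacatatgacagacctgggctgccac
*Gata5* downstream region, chr2:180035456-180035755: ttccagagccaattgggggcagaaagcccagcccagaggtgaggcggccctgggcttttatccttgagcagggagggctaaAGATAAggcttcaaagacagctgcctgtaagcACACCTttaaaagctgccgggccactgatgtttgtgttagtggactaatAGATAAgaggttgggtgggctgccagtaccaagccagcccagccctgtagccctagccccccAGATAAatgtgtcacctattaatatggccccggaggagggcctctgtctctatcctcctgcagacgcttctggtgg
*Mef2c* intronic region, chr13:83657346-83657645: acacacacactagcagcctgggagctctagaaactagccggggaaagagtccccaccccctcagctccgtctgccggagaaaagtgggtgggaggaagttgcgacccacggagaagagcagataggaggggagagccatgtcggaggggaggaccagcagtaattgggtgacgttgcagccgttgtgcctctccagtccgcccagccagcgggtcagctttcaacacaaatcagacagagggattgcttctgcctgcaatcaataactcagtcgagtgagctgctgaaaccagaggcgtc
The *Nkx2-5* window held 2 GATA and 2 HAND motifs and the *Gata5* window 3 GATA motifs and 1 T-box motif. The *Mef2c* window held none of the 4.

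Of the 11 decreased H3K4me2 regions at these genes, 8 lay over a 5′ end, 2 lay upstream and 1 was intronic. The region over the 5′ end was in the decreased H3K4me2 list for 8 of the 10 genes, against 28.7% of the 15066 protein-coding genes with a region there. *Hand1* and *Mef2c* were the exceptions. In the decreased H3K4me1 list the count over a 5′ end was 0 of 10, which at a share of 0.664% of protein-coding genes is the background level. The 11 decreased H3K4me1 regions lay at intronic, upstream and downstream positions of *Nkx2-5*, *Gata4*, *Gata5*, *Tbx5* and *Hand1*.

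Over all 246 regions, 11 were in the decreased H3K4me1 list, or 4.47% (95% Wilson interval 2.51% to 7.83%). The share was 0.761% of the merged list and 0.880% of the 257162 regions assigned to protein-coding genes by the same rule. The decreased H3K4me2 list also held 11 of the 246 regions (4.47%, with the same interval), against 1.87% of the merged list. Among the 257162 regions the H3K4me2 share was 2.31%, close to the lower limit of 2.51%. Only 1 region, upstream of *Gata5*, was in both lists. The intervals cover counting error only, and neighbouring regions are not independent. *Gata5* decided much of the H3K4me1 share, which was 2.70% without that gene. At least 1 decreased H3K4me1 region was found at 5 of the 10 genes, against 14.4% of protein-coding genes, and at least 1 decreased H3K4me2 region at 9, against 45.7%. A gene with more or wider regions has more chances of a call, and these loci had a median of 22.5 regions each, against 19 for protein-coding genes. Both lists reached *Nkx2-5*, *Gata4*, *Gata5* and *Tbx5*, only the H3K4me1 list reached *Hand1*, and only the H3K4me2 list reached *Gata6*, *Tbx20*, *Hand2*, *Mef2c* and *Isl1*.

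**Figure D1:**
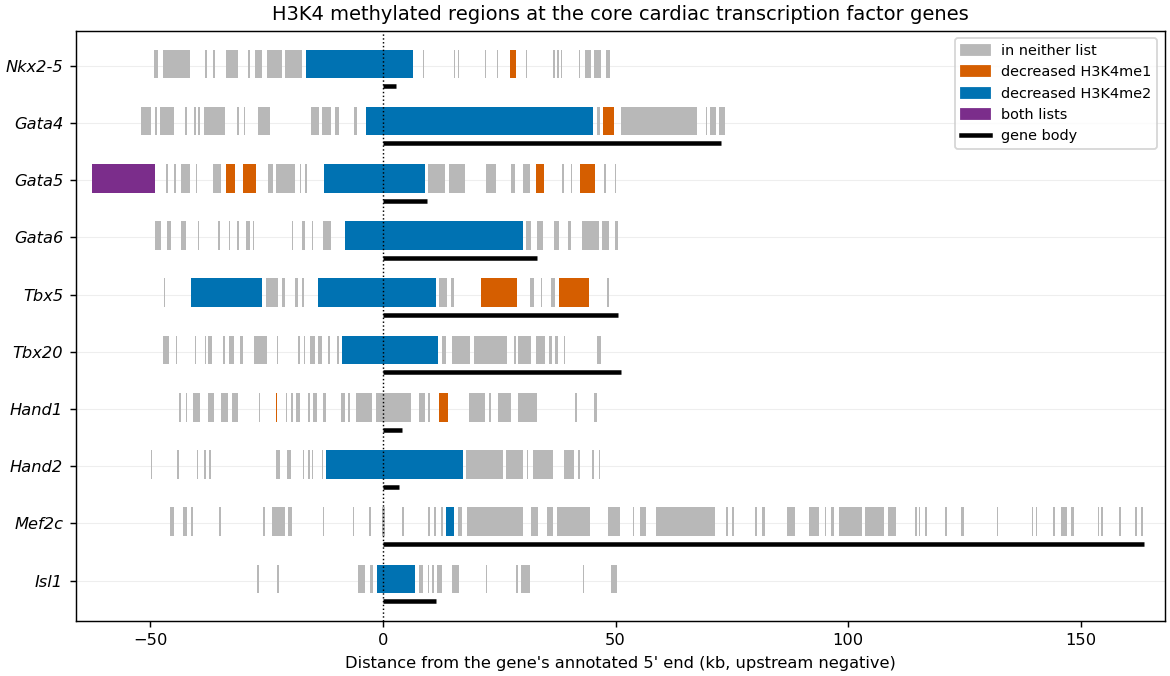
Merged regions at the 10 genes (rows) by distance from the annotated 5′ end in kb, with upstream negative and the gene body drawn as a black bar. Colours give the list a region was in. Blue bars of decreased H3K4me2 cross the 5′ end in 8 of the 10 genes, against 28.7% of protein-coding genes, and orange bars of decreased H3K4me1 in 0, against 0.664%.

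In 7 of the 10 genes the region over the 5′ end was among the widest 133 of the 15066 over a protein-coding 5′ end, whereas at *Isl1*, *Hand1* and *Mef2c* it was not. Over all 10 genes this region was 22300 bp wide in the median (interquartile range 11355 to 28500 bp). For protein-coding genes the median was 3640 bp (2340 to 5660 bp). The same 7 regions were 20 kb or wider, as were those of 146 protein-coding genes in all. Regions covered a median of 50.6% of the window around the 10 genes and 92.3% of the gene body. The medians over all 22367 protein-coding genes, of which 67.4% had a region over the 5′ end, were 16.7% and 17.1%. The number of regions set these loci apart less, and the median of 22.5 lay at percentile 65.5 of protein-coding genes.

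**Figure D2:**
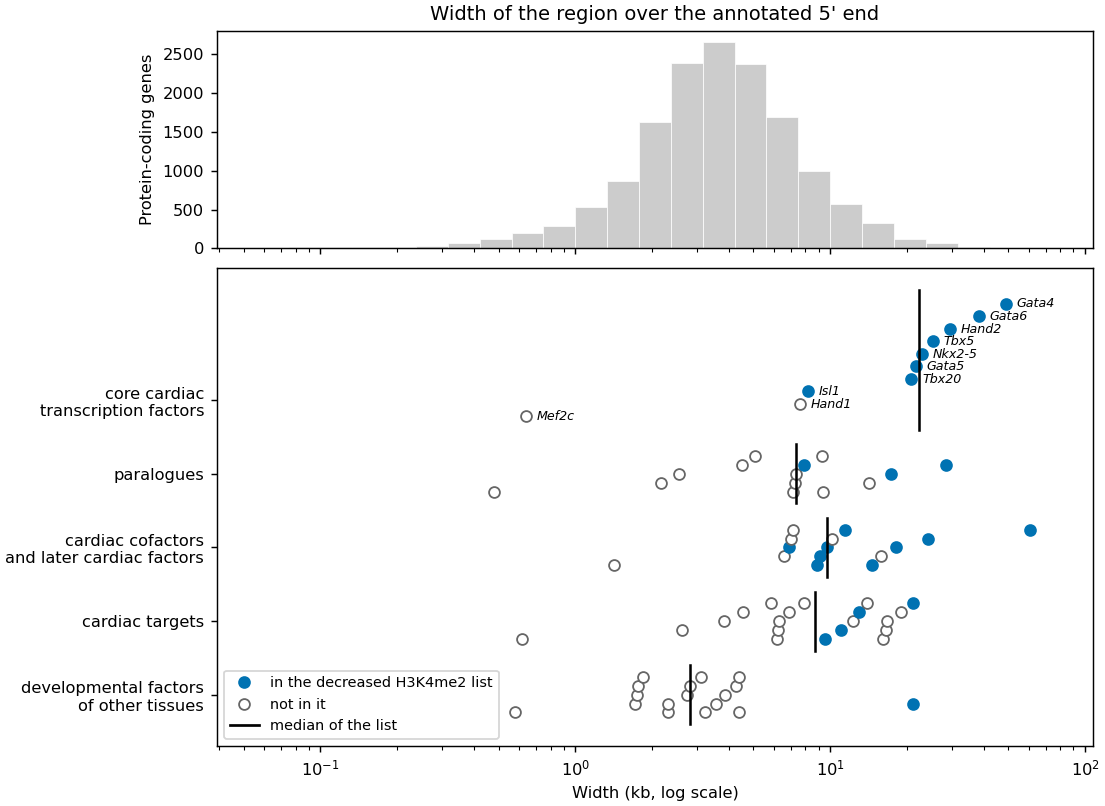
Width of the region over the annotated 5′ end in kb on a log scale, as a histogram over 15066 protein-coding genes (top) and for each gene of the 10 factors and of 4 comparison lists (bottom). Filled points were in the decreased H3K4me2 list and the black line is the median of a list. For the core factors 7 of 10 points lie at or above 20 kb, with *Hand1*, *Isl1* and *Mef2c* below.

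The region over the 5′ end is called the promoter region in what follows. *Nkx2-5*, a homeobox gene expressed throughout the cardiac crescent and the later myocardium, lies at chr17:26975609-26978510 on the minus strand. Its 24 regions covered 47.7% of the window (percentile 95.8 of protein-coding genes). Its promoter region, chr17:26972146-26995045, was 22900 bp wide and ranked 95 of 15066 in width. It covered the whole gene and ran 16535 bp upstream of the TSS and 6364 bp downstream, and it was in the decreased H3K4me2 list. The decreased H3K4me1 list held a different region, chr17:26949886-26951245, which lay 27.3 to 28.6 kb downstream of the TSS beyond the 3′ end of the gene. At 1360 bp this region was a small fraction of the width of the promoter region.

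The 3 GATA genes all had a decreased H3K4me2 region over the 5′ end. *Gata4*, needed for heart tube formation and a partner of both NKX2-5 and TBX5, lies at chr14:63817759-63890529 on the minus strand. The promoter region, chr14:63845446-63894245, was 48800 bp wide and ranked 4 of 15066. It reached 45083 bp into the gene and held 5 of the 6 annotated start positions, including those of Gata4-002 and Gata4-001 at 26421 and 26444 bp downstream. The start of Gata4-003, 58085 bp downstream, lay in a separate region of 16180 bp that was in neither list. Between these 2 wide regions, chr14:63840846-63843245 was in the decreased H3K4me1 list, as an intronic region of 2400 bp. Regions covered 70.0% of the *Gata4* window, at percentile 99.8.

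*Gata6*, which shares early heart functions with *Gata4*, lies at chr18:11052508-11085633 on the plus strand. The region over its 5′ end was 38180 bp wide (chr18:11044386-11082565) and ranked 10 of 15066. It made up 69.2% of the summed width of the 21 regions at *Gata6*, the highest share among the 10 genes. It was in the decreased H3K4me2 list, and no region at *Gata6* was in the decreased H3K4me1 list.

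*Gata5*, expressed in the early heart and later in the endocardium, lies at chr2:180059838-180069404 on the minus strand. Its promoter region, chr2:180060426-180082125, was 21700 bp wide and was in the decreased H3K4me2 list. *Gata5* also had 5 regions in the decreased H3K4me1 list, and 37 protein-coding genes, *Gata5* included, had 5 or more. Upstream of the TSS these were chr2:180096586-180099545 (2960 bp) and chr2:180101086-180103205 (2120 bp), 27.2 to 33.8 kb away. Downstream they were chr2:180034706-180036505 (1800 bp) and chr2:180023726-180026965 (3240 bp). The latter also held the start of the neighbouring gene *BC066135*.

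The fifth H3K4me1 region at *Gata5*, chr2:180118446-180131885, was the region found in both lists. It was 13440 bp wide and lay 49.0 to 62.5 kb upstream, so that only its edge was inside the window. It held the annotated starts of *Mir1a-1*, a microRNA gene of heart and skeletal muscle, and of its host transcript *B230312C02Rik*. Requiring a region to lie wholly inside the window left 10 regions of each list among 241.

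*Tbx5*, required in the atria and the left ventricle and mutated in Holt-Oram syndrome, lies at chr5:120284672-120335227 on the plus strand. It had only 15 regions, yet they covered 63.0% of the window (percentile 99.4), and 4 of the 15 were decreased. Its promoter region, chr5:120270686-120296005 (25320 bp), and a region 26.1 to 41.3 kb upstream, chr5:120243346-120258605 (15260 bp), were in the decreased H3K4me2 list. The intronic regions chr5:120305746-120313485 (7740 bp) and chr5:120322506-120328885 (6380 bp) were in the decreased H3K4me1 list. *Tbx5* was the only one of the 10 genes with a decreased H3K4me2 region upstream that was in that list alone.

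*Tbx20*, needed for chamber growth, lies at chr9:24527648-24578746 on the minus strand. Its 27 regions covered 49.7% of the window. Its promoter region, chr9:24566806-24587625, was 20820 bp wide, the narrowest of the 7 regions of 20 kb or more, and was in the decreased H3K4me2 list. None of the other regions at *Tbx20* was in either list.

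The HAND genes differed from each other. *Hand2*, required for the right ventricle, lies at chr8:59799780-59803314 on the plus strand and had a 29560 bp region over its 5′ end (chr8:59787506-59817065, rank 39 of 15066). This region was in the decreased H3K4me2 list, and no region at *Hand2* was in the H3K4me1 list. *Hand1*, expressed in the left ventricle and its outer curvature, lies at chr11:57642207-57646320 on the minus strand and had a 7580 bp region over its 5′ end (chr11:57640266-57647845, rank 2053), which was in neither list. Instead 2 of its 27 regions were in the decreased H3K4me1 list. One was chr11:57632386-57634185 (1800 bp), 12.1 to 13.9 kb downstream of the TSS. The other was chr11:57669246-57669325, 22.9 to 23.0 kb upstream and only 80 bp wide. None of the 32-base words in these 80 bp occurred more than once in the assembly.

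*Mef2c*, which drives contractile genes and the growth of the right ventricle and outflow tract, is the longest of the 10 genes (chr13:83643033-83806684, plus strand, 163652 bp) and had 52 regions. The region over its annotated 5′ end, chr13:83642906-83643545, was only 640 bp wide and ranked 14653 of 15066. The next annotated start, 20943 bp downstream, lay in a region of 12100 bp (chr13:83661026-83673125). The widest region, chr13:83701666-83714345 (12680 bp), held a further RefSeq start 69732 bp downstream of the annotated 5′ end. None of these 3 regions was in a decreased list. The only decreased region was chr13:83656646-83658345, an intronic region of 1700 bp in the H3K4me2 list, 13.6 to 15.3 kb downstream.

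*Isl1*, a LIM homeodomain gene of second heart field progenitors that is switched off as most of these cells become myocardium, lies at chr13:117088478-117099896 on the minus strand. Its 15 regions covered 17.6% of the window, at percentile 52.3 of protein-coding genes, which was the lowest value among the 10 genes. Its promoter region, chr13:117093006-117101205, was 8200 bp wide (rank 1728) and was in the decreased H3K4me2 list. It was the narrowest of the 8 promoter regions called.

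Wide promoter regions were called more often throughout the series. The region over the 5′ end was in the decreased H3K4me2 list for 1.74% of protein-coding genes where it was under 1 kb wide, 24.8% at 1 to 5 kb, 38.6% at 5 to 10 kb and 46.0% at 10 to 20 kb. At 20 kb or more the share was 67.8% of 146 genes, and the 7 core factor genes in that class were all called. So were all genes of the comparison lists in that class, *Tbx2*, *Zfpm1*, *Tead1*, *Pln* and *Tal1*. At 5 to 10 kb *Isl1* was called and *Hand1* was not. The part of width in the count of 8 of 10 was not tested.

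**Figure D3:**
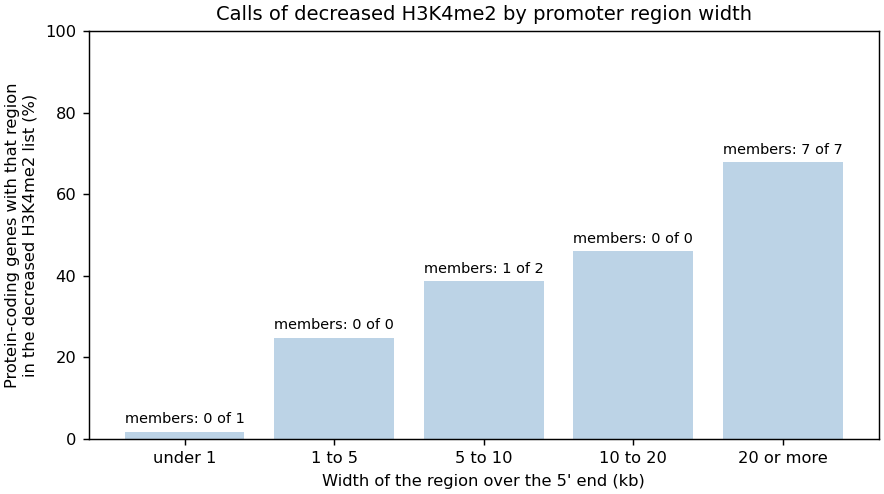
Share of protein-coding genes (%, bars) whose region over the 5′ end was in the decreased H3K4me2 list, by width of that region in kb, with the count of core factor genes above each bar. The share rises from 1.74% under 1 kb to 67.8% at 20 kb or more, where 7 of 7 core factor genes were called.

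Decreased H3K4me1 calls also rose with width over all merged regions, from 0.371% under 1 kb to 14.1% at 20 kb or more. Of the 74 regions of 1 to 5 kb at the 10 genes, 7 were in the H3K4me1 list (9.46%), against 1.73% of all merged regions of that width. Without *Gata5* this was 3 of 62 (4.84%). At 5 to 20 kb, 3 of 13 were in the H3K4me1 list (23.1%, against 4.48%), and at 20 kb or more 0 of 7, where the share of 14.1% of 227 merged regions is about 1 region in 7 and that of protein-coding 5′ end regions was 8.90%. For H3K4me2 the shares were 1.35% against 4.29% at 1 to 5 kb, 23.1% against 20.3% at 5 to 20 kb and 7 of 7 against 48.0% at 20 kb or more. Below 20 kb the H3K4me2 shares at these loci therefore lay under or near those of all merged regions. At these loci the H3K4me1 calls ranged from 80 to 13440 bp in width (median 2400 bp) and the H3K4me2 calls from 1700 to 48800 bp (median 21700 bp). Regions in neither list had a median of 540 bp.

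By position, 4 of the 112 upstream regions, 3 of the 54 intronic regions and 4 of the 54 downstream regions were in the decreased H3K4me1 list. The share over all merged regions was 0.761%. Beside the 8 over a 5′ end, the H3K4me2 list held 2 of the 112 upstream, 1 of the 54 intronic and 0 of the 54 downstream regions. Away from the 5′ end these counts are near the 1.87% of all merged regions. Of the 16 regions that touched an exon without reaching the 5′ end, 0 were in either list, which is near the 0.761% and 1.87% of all merged regions. For 193 of the 246 regions the nearest protein-coding 5′ end was that of the core factor gene itself, and these included 7 of the 11 H3K4me1 calls and 10 of the 11 H3K4me2 calls. The H3K4me1 regions nearest to another gene were those beside *Neil2* (in *Gata4*), *BC066135* (2 regions downstream of *Gata5*) and *Gm11003* (the 80 bp region at *Hand1*). The H3K4me2 call counted to another gene was the promoter region of *Gata5* itself. It also holds the start of *Gm14318*, and the tie was given to that gene.

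Averaged over the 10 genes, regions covered 87.0% of the sequence within 5 kb of the 5′ end, against 33.9% for protein-coding genes. Coverage fell to 61.4% at 5 to 10 kb upstream and stayed higher downstream, with 72.9% at 5 to 10 kb and 62.1% at 10 to 25 kb, against 15.7% to 19.8% for protein-coding genes in these 3 bands. Decreased H3K4me2 regions covered 75.0% within 5 kb of the 5′ end and 28.2% at 10 to 25 kb downstream (protein-coding genes, 9.87% and 2.03%). Decreased H3K4me1 regions covered nothing within 10 kb on either side, where the share for protein-coding genes was also under 1% (0.263% to 0.493%). They covered 3.82% at 10 to 25 kb downstream and 7.60% at 25 to 50 kb downstream, where protein-coding genes had 0.549% and 0.515%.

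**Figure D4:**
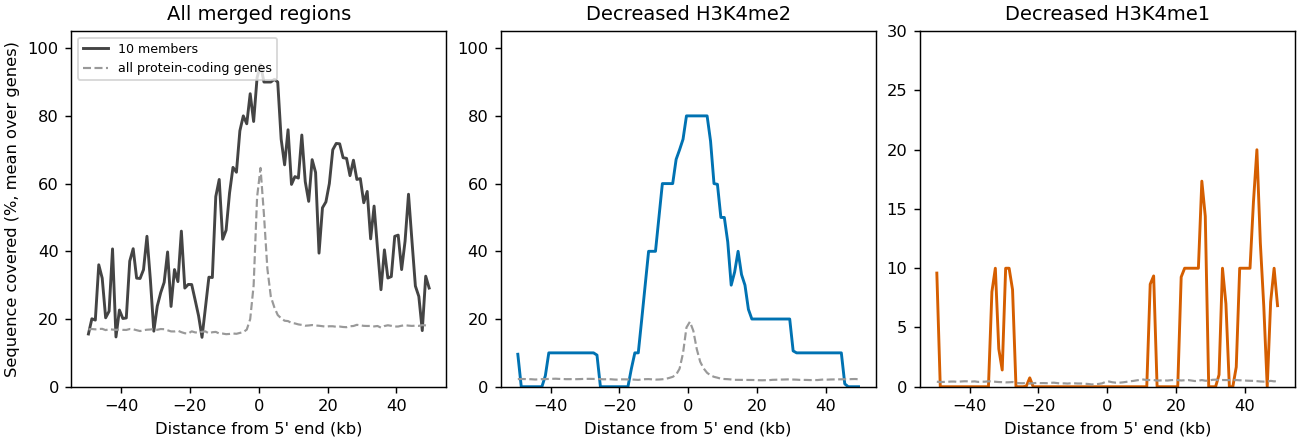
Mean share of sequence (%) covered by all merged regions, by decreased H3K4me2 regions and by decreased H3K4me1 regions in 1 kb bins against distance from the 5′ end in kb, for the 10 genes (solid) and all protein-coding genes (dashed). The right panel has its own axis, to 30%. Decreased H3K4me2 centres on the 5′ end, where it covers 75.0% of the nearest 5 kb on either side. Decreased H3K4me1 is 0 in that band, against 0.319% for protein-coding genes.

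Widening the window from 50 kb to 100 kb raised the number of regions from 246 to 423. The H3K4me1 calls rose from 11 to 12 and the H3K4me2 calls from 11 to 13. The shares over all merged regions were 0.761% and 1.87%, so the low number of added calls is not a result about these loci. The added calls were a decreased H3K4me1 region of 560 bp 93.7 to 94.2 kb downstream of *Gata5*, a decreased H3K4me2 region of 5020 bp 95.4 to 100.5 kb upstream of *Nkx2-5*, and 1 of 1200 bp 85.2 to 86.4 kb upstream of *Tbx5*. The protein-coding genes nearest to them were others, *Lama5*, *Cuta* and *Tbx3*. Just inside the limit, the farthest was the *Gata5* region with its near edge at 49.0 kb.

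The comparison lists were counted in the same way. The paralogues were 15 GATA, T-box, MEF2, ISL and NKX2 genes, of which 14 had a region over the 5′ end, with a median width of 7320 bp. That region was in the decreased H3K4me2 list for 3 of 14 (21.4%, against 28.7% of protein-coding genes), *Tbx2* (28400 bp), *Mef2d* (17340 bp) and *Mef2a* (7860 bp). *Tbx2* represses chamber genes in the atrioventricular canal, and *Mef2a* and *Mef2d* encode MEF2 proteins of muscle. Among 15 cofactors and later cardiac factors the median was 9760 bp, and 9 of 15 were called (60.0%, against 28.7% of protein-coding genes): *Zfpm1*, *Zfpm2*, *Smarcd3*, *Tead1*, *Hopx*, *Irx4*, *Hey1*, *Hey2* and *Meis1*. The region at *Zfpm1*, which encodes a GATA cofactor of the FOG family, was 60640 bp wide, wider than any at the 10 core genes.

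Among 20 contractile, natriuretic, conduction and calcium genes that these factors regulate, the region over the 5′ end had a median of 8690 bp. That region was in the decreased H3K4me2 list for 4 of the 20, *Actc1*, *Myl2*, *Pln* and *Atp2a2*, a share of 20% that was below the 28.7% of all protein-coding genes. It was in the decreased H3K4me1 list for 2, *Myl3* and *Ryr2*, against 0.664%. Over all regions of these 20 genes, 3.56% were in the H3K4me1 list and 2.54% in the H3K4me2 list. For 19 developmental factors of other tissues the median was 2820 bp, the shares of regions were 0.580% and 1.45%, and 1 of 17 regions over a 5′ end was in the decreased H3K4me2 list, that of the blood factor *Tal1* (21060 bp). The paralogues had shares of 1.78% and 2.66% and the cofactors 1.46% and 2.93%. The core factors' shares were 4.47% for both marks, and the differences between lists were not tested.

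The protein-coding genes most like the 10 in number of regions, covered length and width of the region over the 5′ end, by distance to their median over 15066 genes, were *Hspg2*, *Gm14318*, *Cttnbp2nl*, *Gm9821* and *6330512M04Rik*. *Gm14318*, annotated as protein-coding in GENCODE vM1, shares the promoter region of *Gata5* itself. The 5′ end regions of these 5 genes were 20140 to 22940 bp wide. Of these, 4 were in the decreased H3K4me2 list, including the region shared with *Gata5*. Among the 146 protein-coding genes with such a region of 20 kb or more the share was 67.8%. Of the core genes, *Gata5* (distance 0.135), *Nkx2-5* (0.192) and *Tbx20* (0.362) lay nearest to the median, and *Mef2c* lay farthest (4.87).

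The 4 motifs were counted in the decreased regions at these genes. AGATAA was present in 7 of the 19 central 300 bp windows, against 19.6% of 185302 merged regions of at least that width, and CATCTG in 4, against 22.9%. AGGTGT was present in 2 (15.1%) and TNAAGTG in 1 (17.2%). In 7331 windows of decreased regions throughout the series the shares were 14.1% for AGATAA and 18.5% for CATCTG. For AGGTGT and TNAAGTG they were 14.8% and 14.7%. Several of the 19 windows came from the same gene, a window is a small part of a wide region, and no difference was tested. The 80 bp *Hand1* region was too short to count, and no window was taken from the *Gata6* region. In the RefSeq promoters of *Nkx2-5*, *Gata5*, *Tbx20*, *Hand2*, *Mef2c* (3 entries) and *Isl1*, AGATAA was found in 1 of 8, in *Hand2*, AGGTGT in 1, in *Mef2c*, TNAAGTG in none and CATCTG in 2, against 9.99%, 11.8%, 10.1% and 14.4% of 32851 promoters of the same length. *Gata4*, *Gata6*, *Tbx5* and *Hand1* had no entry. A match describes letters only.

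The tissue label was checked against defining genes. A region covered the 5′ end of 5 of 5 cardiomyocyte genes (5840 to 16540 bp wide), 3 of 5 endocardial and endothelial genes, 3 of 3 epicardial genes and 3 of 5 erythroid genes. Those without one were *Pecam1*, *Tie1*, *Gata1* and *Hba-a1*. Such a region was present at 67.4% of all protein-coding genes, so these small counts cannot establish the tissue. When any annotated start was allowed, the endocardial and endothelial count was 5 of 5 and the erythroid count 4 of 5. Regions of 1760 and 1740 bp also covered the 5′ ends of *Rbfox3* and *Pdx1*, genes of neurons and pancreas, while *Alb* and *Krt14* had none.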

How the data were processed

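ChIP-Seq was performed on pooled E11.5 mouse hearts, with 3 pools of 30 hearts per genotype. Per the labels, reads were processed with CASAVA 1.8.2, FastQC, Bowtie, Bowtie2 and SAMtools on mm9. The authors merged peaks over replicates and marks and called decreased regions at a false discovery rate. The peak caller, its settings and the test were not given in the sources used here. The deposited values are region positions, with no score, count or *P* value, so no analysis per library and no test was made. A test on reads generally has more power where a region is wide or holds many reads. Whether this bore on the calls here was not tested.

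From these lists, with Python 3.11.15 and NumPy 2.4.6, regions were converted to 1-based positions and counted per gene in GENCODE vM1 on NCBIM37, after the last region of all 21 chromosomes was checked to end within the assembly. A decreased region was matched to the merged list by identical ends. The counting code was tested on simulated intervals. Shares have 95% Wilson intervals (SciPy 1.17.1). The 10 genes and the comparison lists were chosen with earlier results of these data known. All 10 genes were named, and of the comparison lists those with a decreased region over the 5′ end. Other genes were named where their 5′ end lay in a decreased region at a core gene, where they were nearest to such a region, or as the 5 most alike. *Tnnc1* (more than 1 gene record) and *Sox1* were left out of the lists. Alternatives changed the window, the minimum width, the start sites, the unit of the share and the genes included.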

Additional observations from a re-analysis of the deposited data

How the results depend on the processing

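No paired analysis was possible because the lists hold no value per library. Of 56 alternatives over 6 results, 47 moved the value by less than its interval, its spread over genes or 1.5 times, and 9 moved it by more. The share of decreased H3K4me2 regions rose from 4.47% to 10.7% with a 5 kb window. With regions of at least 1000 bp the shares were 10.6% for H3K4me1 and 11.7% for H3K4me2, against 2.06% and 6.12% of all merged regions of that width. By covered base pairs they were 7.88% and 44.7%, against 2.49% and 9.09%. The median number of regions per gene was 11 with a 25 kb window, 43.5 with 100 kb, 4.5 with 5 kb and 9 with regions of at least 1000 bp. The shares by covered base pairs use the same 246 regions, with wide regions weighing more. The other settings changed which regions entered each count. With the 5 kb window the H3K4me1 share was 3.57%, and why the shares moved was not tested. Leaving out 1 gene at a time gave H3K4me1 shares from 2.70% (without *Gata5*) to 5.67% (without *Mef2c*) and H3K4me2 shares from 3.90% (without *Tbx5*) to 5.15% (without *Mef2c*). The count of 8 promoter regions with decreased H3K4me2 was also 8 with any annotated start, where 29.2% of protein-coding genes were called, and 7 of 7 among regions of 20 kb or more. Both settings were chosen after seeing the data. A region in neither list is not shown to be unchanged, since read counts per region were not at hand.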

Other observations

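Of the wide promoter regions, 3 also held the start of a second gene, which RefSeq lists as a long non-coding RNA. These were *Gm14318* (*Gata5os*) at *Gata5*, *1010001N08Rik* (*Gata6os*) at *Gata6* and *5033428I22Rik* (*Hdnr*) at *Hand2*. A decreased call over such a region cannot be assigned to 1 of the 2 start sites.

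The regions over the 5′ end of the 10 core factor genes had a median GC content of 47.5% and a median observed over expected CpG of 0.368, against 50.6% and 0.468 for protein-coding genes and 50.1% and 0.289 for those of 20 kb or more. GC content ranged from 44.5% at *Tbx20* to 54.3% at *Hand1*. In contrast, the 250 bases before the start site had a GC content of 71.2% at *Isl1*, 70.0% at *Gata5* and 68.8% at *Tbx20*, and of 49.2% at both *Nkx2-5* and *Hand2*. Before the annotated 5′ end of *Mef2c* it was 33.6%, the lowest of these promoters, and the promoter 19622 bp downstream had 44.8%.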
